A study of Mus musculus with 5 samples.

Results

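The Fc receptor and ITAM adaptor genes are 10 of the 31626 genes in the deposited FPKM tables, chosen as the rows whose gene name is Fcgr1, Fcgr2b, Fcgr3, Fcgr4, Fcer1a, Fcer1g, Ms4a2, Tyrobp, Syk or Fcgrt. FPKM corrects the fragments of a gene for its length and for the size of the library. Each gene was found once, and 8 of the 10 passed the filter, a level of 1 FPKM or more in 2 or more libraries out of 5. The libraries came from common myeloid progenitors (CMP), blood progenitors of C57Bl/6 mice from which granulocytes, monocytes, platelets and red cells arise. All cells carried MLL1 flox/flox alleles, were transformed with the MSCV-MN1-IRES-GFP retrovirus, which expresses the leukaemia gene MN1, and grew in M3234 medium with FBS, IL3, IL6 and SCF. The Mll1 knockout group (MLL1 -/-, 2 libraries) had been transduced with Cre recombinase, and the control group (3 libraries) with a control. Cells of both groups were sorted on day 7. The sort gate is not given in the sources used here, and no source says that replicates were independent cultures or animals, so each p-value covers only the spread among the libraries at hand, which may be technical. Wild-type cells given Cre were not analysed here, and the effects of Cre itself and of the Mll1 deletion cannot be told apart.

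Fc receptors bind the constant part of antibodies and couple antibody to phagocytosis, degranulation and cytokine release in myeloid cells. Most activating receptors carry no signal motif of their own and pair with a small adaptor. Fcer1g is that adaptor for the activating Fc receptors, and Tyrobp for TREM and other receptors. The tail of each adaptor holds an immunoreceptor tyrosine-based activation motif (ITAM). SRC family kinases phosphorylate the tyrosines of that motif, the kinase Syk docks there, and inhibitory receptors such as Fcgr2b oppose the signal through phosphatases.

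The targeted gene, Mll1 (current symbol Kmt2a), was at 6.22 and 5.32 FPKM in the Mll1 knockout libraries, against 9.67, 7.28 and 7.19 FPKM in the controls. Its values did not overlap between groups, with a log2 change of -0.41, a limma adjusted p of 0.158 and an exact permutation p of 0.1 (two-sided), the smallest that the 10 splits of 5 libraries allow. The labels do not say which exons are floxed, and RNA from outside the deleted part still counts towards the gene, so this level does not settle how complete the deletion was. Absolute depth is unknown because the tables hold no counts, and the value of 1 read in the other libraries was 0.98 to 1.018 times that in control replicate 1. Control replicate 1 stood apart from the other controls, with a Pearson r across genes of 0.949 to each of them, against 0.970 between control replicates 2 and 3. The progenitor markers of the labelled cell type were present, with summed levels of 5862 to 6260 FPKM in Mll1 knockout and 3143 to 3919 FPKM in control libraries. Most of each sum came from the granule genes Mpo, Elane, Ctsg and Prtn3. Both Mll1 knockout libraries lay above every control in these 4, against 22.9% of all genes tested. They lay below every control in the other 3, Cd34, Kit and Cebpa, against 29.4% of all genes tested. Of the 7, 2 rose (28.6%) and 1 fell (14.3%). Cd34, a stem and progenitor antigen, fell to 216 and 212 FPKM in Mll1 knockout, against 685, 600.3 and 587 FPKM in control libraries. Across all 11780 genes tested, 450 rose (3.82%) and 703 fell (5.97%) at an adjusted p under 0.05, which makes 39.0% of the calls rises, against 49.4% (589 rose, 603 fell) with median-ratio scaling.

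Fcgr3, Fcgr2b and Fcgr4, the low- to medium-affinity IgG receptors of the chromosome 1 cluster, rose in the Mll1 knockout libraries, by 2.75, 1.58 and 2.77 times in mean FPKM. Fcgr1 and the adaptor Tyrobp were also higher in both Mll1 knockout libraries than in every control but did not pass the test. The common adaptor Fcer1g was lower in both Mll1 knockout libraries than in every control and did not pass either. Ms4a2 and Syk had log2 changes of 0.021 and 0.18 and were not called, and Fcer1a and Fcgrt lay below the filter. Of the 8 tested genes 3 were called, against 9.79% of all genes tested in either direction, and all 3 rose (37.5%, against 3.82% of all genes tested), 0 fell in limma's test (1, Fcer1g, was lower at an unadjusted p under 0.05), and 5 were not called. Both Mll1 knockout libraries lay above every control in 6 of the 8, against 22.9% of all genes tested, and below every control in 1, against 29.4%. The median log2 change of the 8 was 0.64, beside -0.03 over all genes tested. Because the RNA is from bulk cultures, a different share of cells of a type and a different amount of RNA per cell cannot be told apart.

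**Figure D1:**
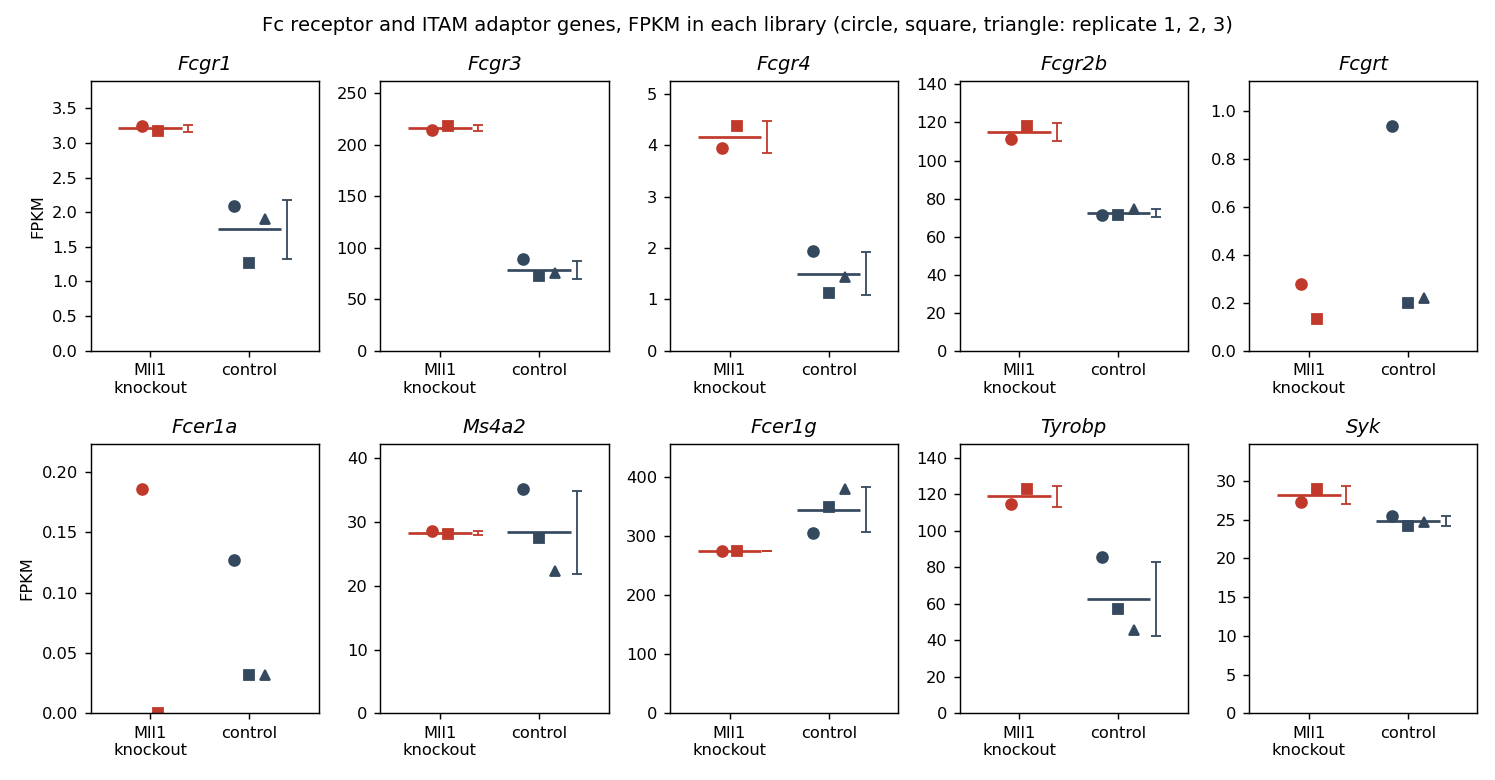
FPKM (vertical axis, from 0, each panel with its own scale) of the 10 genes in the 2 Mll1 knockout and 3 control libraries; each symbol is a library, the horizontal line is the group mean and the bar beside it the SD, both left out for Fcer1a and Fcgrt, which lie below the filter. Fcgr3 sits at 215 and 218 FPKM in the Mll1 knockout libraries, above control values of 72.2 to 88.8 FPKM, and Fcer1g shows the opposite order.

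FPKM levels, which are per gene length, differed widely among the genes. In Mll1 knockout libraries Fcer1g was highest (275.0 ± 0.10 FPKM, SD, n = 2), followed by Fcgr3 (216 ± 2.66), Tyrobp (119 ± 5.80) and Fcgr2b (115 ± 4.77), then Ms4a2 (28.3 ± 0.346) and Syk (28.1 ± 1.19), then Fcgr4 (4.16 ± 0.309) and Fcgr1 (3.21 ± 0.0480). Tyrobp and Fcgr2b were within 1 SD of each other there, as were Ms4a2 and Syk. In control libraries Fcer1g was again highest (345 ± 38.1 FPKM, SD, n = 3), and Fcgr3 (78.7 ± 8.89), Fcgr2b (72.4 ± 2.02) and Tyrobp (62.8 ± 20.4) overlapped. Below them came Ms4a2 (28.3 ± 6.48) and Syk (24.8 ± 0.683), which overlapped, and Fcgr1 (1.75 ± 0.427) and Fcgr4 (1.502 ± 0.421), which overlapped too. Fcgr3 thus stood clear of Tyrobp and Fcgr2b in the Mll1 knockout libraries and among them in the controls.

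Fcgr3, the low-affinity activating receptor that binds IgG immune complexes, had 215 and 218 FPKM in the Mll1 knockout libraries, against 88.8, 72.2 and 75.0 FPKM in the controls. The groups were far apart, and each group's values lay close together beside the gap between them. Its log2 change on the log2(FPKM + 1) scale was 1.45 ± 0.11 (SE), and limma with Benjamini-Hochberg adjustment over all genes tested gave an adjusted p of 0.00783. Fcgr4, an activating receptor for mouse IgG2a and IgG2b, was much lower in level, at 3.94 and 4.38 FPKM in the Mll1 knockout libraries and 1.95, 1.11 and 1.44 FPKM in the controls. Every knockout value was above every control value, and the log2 change of 1.06 ± 0.18 (SE) had a limma adjusted p of 0.0320. Fcgr1, the high-affinity IgG receptor, had 3.24 and 3.18 FPKM in the Mll1 knockout libraries and 2.08, 1.27 and 1.91 FPKM in the controls. Its groups did not overlap either, but the log2 change of 0.62 ± 0.17 (SE) missed the threshold, with a limma adjusted p of 0.0823.

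Fcgr2b, the inhibitory IgG receptor, had 111 and 118 FPKM in the Mll1 knockout libraries and 71.2, 71.3 and 74.8 FPKM in the controls. The control values lay close together and below both knockout values, and the log2 change was 0.66 ± 0.072 (SE; limma adjusted p = 0.0152). Fcgr2b is known for an inhibitory tyrosine motif (ITIM) in its tail, which recruits phosphatases, and its coding stretch in the GENCODE M21 transcript (codons 317 to 322, chromosome 1, minus strand) is shown with the tyrosine codon in capitals.
Fcgr2b ITIM: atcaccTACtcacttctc
The form searched was isoleucine, leucine, valine or serine, any residue, tyrosine, any 2 residues, then leucine, valine or isoleucine. It is common, present in 48.9% of 21569 coding sequences, and was also matched at 3 places in Fcgr1 and at 1 each in Fcgr4, Fcer1g, Tyrobp and Fcgrt, so these letters alone do not mark an inhibitory receptor.

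Fcgr3 and Fcgr2b are close copies in their outer part, and 9.58% of the 50-base windows of the Fcgr3 transcripts in GENCODE M21 also occur in Fcgr2b. How reads that map to both were shared out is not given in the sources used here, so the values of both genes are uncertain to that extent. Fcgr2b also overlaps the gene Gm38204 on the opposite strand. The ratio of the activating to the inhibitory receptor does not depend on the scaling of a library. Fcgr3 over Fcgr2b was 1.93 and 1.85 in the Mll1 knockout libraries, against 1.25, 1.01 and 1.004 in the controls. The 2 groups did not overlap, with a log2 difference of 0.80 and an exact permutation p of 0.1 (two-sided), the smallest possible. Fcgr3 over Fcgr4, a ratio chosen after its values were seen and given without a test, was 54.4 and 49.9 in the Mll1 knockout libraries and 45.5, 64.8 and 52.1 in the controls, where the groups overlapped.

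Which calls held depended on the library left out, since each group has 2 or 3 libraries. Fcgr3 rose without any of the 3 controls (adjusted p = 0.00305, 0.0431 and 0.0440 without control replicates 1, 2 and 3). Fcgr2b (adjusted p = 0.0661 and 0.0542) and Fcgr4 (0.0798 and 0.0931) were not called without control replicate 2 or 3. With either knockout library left out, none of the 3 was called: Fcgr3 had adjusted p = 0.119 and 0.132, Fcgr2b 0.174 and 0.197, and Fcgr4 0.227 and 0.270 without knockout replicates 1 and 2, where the lone knockout library is assumed to vary like the controls. Without control replicate 1, Fcgr1 (adjusted p = 0.0380) joined the genes that rose. In that setting 1398 of all 11780 genes tested rose, against 450 with every library kept. Fcgr4 was also not called when no filter was applied (adjusted p = 0.0837).

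**Figure D2:**
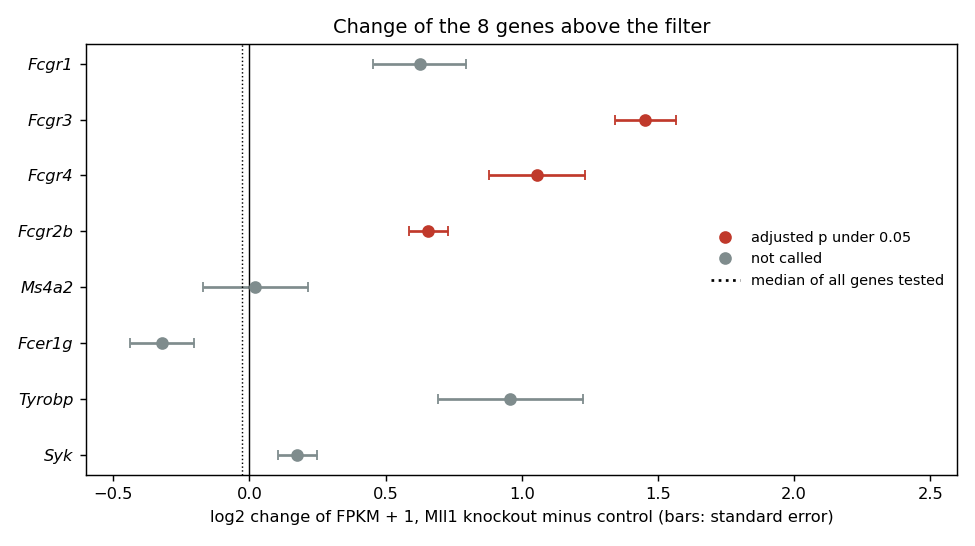
Log2 change of FPKM + 1, Mll1 knockout minus control, of the 8 genes above the filter (points, with SE bars); red marks an adjusted p under 0.05, and the dotted line is the median of all genes tested (-0.03). Fcgr3, Fcgr4 and Fcgr2b lie right of 0 in red, and Fcer1g lies left of 0 at -0.32.

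The promoter windows of the receptors that rose and of Fcer1g are shown because the genes that rose and the adaptor that did not rise lie on the same chromosome. Fcer1a, also on chromosome 1 and below the filter, is not shown. Sequences are from RefSeq, build GRCm38.p6, 250 bases before to 50 after the annotated start, 5′ to 3′ on the gene's strand; the expression tables used build mm9. Capitals mark GAGGAA, a form of the ETS core, or its reverse complement TTCCTC, letters bound by factors such as PU.1 of myeloid cells. Other ETS forms were not searched. The windows are chr1:171059354-171059653 (Fcgr3, minus strand), chr1:171018676-171018975 (Fcgr4, plus strand), chr1:170976022-170976321 (Fcgr2b, minus strand) and chr1:171234300-171234599 (Fcer1g, minus strand).
Fcgr3 promoter: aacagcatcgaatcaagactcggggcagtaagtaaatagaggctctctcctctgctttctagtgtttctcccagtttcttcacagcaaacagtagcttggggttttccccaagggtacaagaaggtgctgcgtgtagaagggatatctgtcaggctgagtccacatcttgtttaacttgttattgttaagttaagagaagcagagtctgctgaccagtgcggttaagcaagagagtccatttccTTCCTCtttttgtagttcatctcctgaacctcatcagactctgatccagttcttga
Fcgr4 promoter: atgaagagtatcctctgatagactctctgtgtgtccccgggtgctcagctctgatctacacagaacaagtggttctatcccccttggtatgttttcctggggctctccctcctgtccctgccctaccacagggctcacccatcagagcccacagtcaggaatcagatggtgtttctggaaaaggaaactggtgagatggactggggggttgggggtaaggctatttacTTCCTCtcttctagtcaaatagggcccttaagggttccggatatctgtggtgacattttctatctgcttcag
Fcgr2b promoter: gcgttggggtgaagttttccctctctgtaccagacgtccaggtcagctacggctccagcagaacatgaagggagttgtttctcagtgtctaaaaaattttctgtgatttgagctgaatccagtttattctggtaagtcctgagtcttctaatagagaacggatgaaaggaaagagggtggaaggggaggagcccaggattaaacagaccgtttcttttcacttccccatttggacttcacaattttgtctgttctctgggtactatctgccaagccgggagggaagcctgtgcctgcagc
Fcer1g promoter: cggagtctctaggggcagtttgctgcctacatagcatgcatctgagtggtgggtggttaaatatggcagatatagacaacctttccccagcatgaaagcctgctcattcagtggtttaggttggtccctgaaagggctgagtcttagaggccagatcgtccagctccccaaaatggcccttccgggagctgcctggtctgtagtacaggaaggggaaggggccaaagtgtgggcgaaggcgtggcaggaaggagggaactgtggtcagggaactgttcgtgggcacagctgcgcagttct
The GAGGAA core was found once in Fcgr3, 6 bases before the start, and once in Fcgr4, 22 bases before it, both on the reverse strand. It was found 0 times in Fcgr2b and Fcer1g, which does not show that these windows lack other ETS forms. RefSeq lists a second Fcgr3 start, from which the same match lies 15 bases away. Among members not shown, the core was also found once in Fcgr1, once in Fcer1a and once in 1 Syk window. Fcgr1 and Syk were not called, and Fcer1a lay below the filter. The other Syk window, Fcgrt and Ms4a2 held 0 matches. The core occurs on either strand in 28.3% of all 32851 RefSeq mouse promoters of the same length, so 1 match is common. The C/EBP core TTGCNNAA (10.8% of all promoters) was found once in Fcgr3, and the RUNX site TGTGGT (16.8%) was found at 2 places in Fcgr4 and 1 in Fcer1g. Among members not shown, Fcer1a held 1 match to each of these and Fcgrt 1 to the C/EBP core. The GATA site, AGATAA or TGATAA (18.6% of all promoters), had 0 matches in the windows shown. It was found at 3 places in Ms4a2, at 1 in Fcer1a and at 1 in 1 Syk window. No motif overlapped another, and a match is a match of letters, not a site shown to be bound.

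The 3 genes whose profile over the 5 libraries lay nearest to Fcgr3 were Mtus1, Lrp1 and Mapk13, by the root mean square distance of centred log2(FPKM + 1) values (0.0327, 0.0482 and 0.0511). Lrp1, a large endocytic receptor, had 500.7 and 498 FPKM in the Mll1 knockout libraries and 192, 167 and 180.0 FPKM in the controls. Mapk13, a p38 family kinase, had 16.7 and 18.1 FPKM in the Mll1 knockout libraries and 6.22, 5.06 and 4.93 FPKM in the controls. Mtus1, a microtubule-associated gene that overlaps B430010I23Rik and Gm16192 on the opposite strand, had 39.1 and 39.5 FPKM in the Mll1 knockout libraries and 16.4, 12.5 and 13.7 FPKM in the controls. The likeness describes 5 libraries in 2 groups and was found by choosing among all genes tested.

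Markers of mature myeloid cells differed between the groups gene by gene. Of 12 neutrophil markers 10 were tested, 1 rose (10%, against 3.82% of all genes tested) and 0 fell (0 were lower at an unadjusted p under 0.05). Their summed level was 20686 to 22419 FPKM in Mll1 knockout libraries, against 6411, 794 and 1055 FPKM in control replicates 1, 2 and 3, and nearly all of it came from S100a8 and S100a9, of which neither was called (adjusted p = 0.0743 and 0.0836). The other 10 neutrophil markers summed to 439 and 429 FPKM in the Mll1 knockout libraries, against 346, 156 and 163 FPKM in the controls. The largest of these was Lcn2, the 1 that rose (adjusted p = 0.0367). Lcn2 was at 263 and 259 FPKM in Mll1 knockout libraries and 136, 77.9 and 86.2 FPKM in controls. Ngp, Camp, Ltf and Mmp8 overlapped between groups, and the first 3 were highest in control replicate 1. Of the 10 monocyte and macrophage markers 7 were tested, with a median log2 change of -0.10. Among them 0 rose (1 was higher at an unadjusted p under 0.05) and 2 fell (28.6%, against 5.97% of all genes tested). Irf8, which fell, passed the filter only through the controls, where it was higher. The monocyte and macrophage sums were 513 to 625 FPKM in Mll1 knockout libraries, against 576, 138 and 124 FPKM in control replicates 1, 2 and 3. They came mostly from Lyz2 and Ly6c2. Without this pair the sums were 57.9 and 60.7 FPKM in the Mll1 knockout libraries and 114, 70.9 and 55.2 FPKM in the controls, which overlapped. The part of these cells in the IgG receptor values was not tested. Control replicate 1 had several times the neutrophil sum of the other controls, and its Fcgr3 level of 88.8 FPKM stood beside 72.2 and 75.0 FPKM in them. The 8 NK and T cell markers were each under 1 FPKM in every library, with Ncr1, Cd3g and Cd8a at 0, and 5 of 6 B cell markers were too, with Pax5 at 0. Of 8 dendritic cell markers 3 were tested and 1 fell (33.3%, against 5.97%), namely Flt3, which progenitors also express, at 9.51 and 7.69 FPKM in Mll1 knockout libraries and 93.3, 96.3 and 83.5 FPKM in controls. The other 7 summed to 3.08 and 3.09 FPKM in Mll1 knockout libraries and 4.94, 10.1 and 6.82 FPKM in controls, with Siglech at 0. Of 7 megakaryocyte and platelet markers 5 were tested and 1 fell (20%, against 5.97%). Their sums were 39.8 to 47.9 FPKM in Mll1 knockout and 59.0 to 91.5 FPKM in control libraries. Of 8 erythroid markers 7 were tested and 3 rose (42.9%, against 3.82%). The erythroid sums were 169 to 177 FPKM in Mll1 knockout and 140.3 to 142 FPKM in control libraries. Most of each erythroid sum came from Tfrc, which was not called (adjusted p = 0.240). Tfrc was at 128 and 138 FPKM in Mll1 knockout libraries and 93.6, 118 and 118 FPKM in controls. The haemoglobin genes Hbb-b1 and Hba-a1 overlapped between groups and were not called.

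Fcer1g and Tyrobp are the adaptors that carry the ITAM, and Ms4a2, the beta chain of the IgE receptor, carries another of its kind. The stretches are shown because they are the only members with the motif, read as 2 tyrosine codons, each 3 residues before a leucine or isoleucine, with 6 to 8 residues between the repeats. They come from GENCODE M21 transcripts, 5′ to 3′, with the 2 tyrosine codons of the motif in capitals. They are codons 65 to 79 of Fcer1g (chromosome 1, minus strand), 92 to 106 of Tyrobp (chromosome 7, plus strand) and 210 to 223 of Ms4a2 (chromosome 19, minus strand). The Ms4a2 stretch holds a further tyrosine codon between the repeats, tat, left in lower case.
Fcer1g ITAM: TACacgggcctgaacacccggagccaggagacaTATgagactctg
Tyrobp ITAM: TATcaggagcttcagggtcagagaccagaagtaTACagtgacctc
Ms4a2 ITAM: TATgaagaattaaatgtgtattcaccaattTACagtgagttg
The spacing between the repeats was 7 residues in Fcer1g and Tyrobp and 6 in Ms4a2. The other 7 genes held no match, and 2.85% of all 21569 coding sequences did.

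Fcer1g, the common gamma chain that Fcgr1, Fcgr3, Fcgr4 and the IgE receptor need at the cell surface, had 275.0 and 274.9 FPKM in the Mll1 knockout libraries, against 305, 349.7 and 381 FPKM in the controls. Both knockout values were below every control, and the log2 change of -0.32 ± 0.12 (SE) had a limma adjusted p of 0.151. It was called as a fall with quantile normalization (adjusted p = 0.0474) and without control replicate 1 (adjusted p = 0.0200). The change was negative in all 15 alternative settings, between -0.41 and -0.25. The filter, empirical Bayes and threshold settings among them cannot alter a log2 change. Tyrobp, also known as DAP12, the adaptor of TREM and other receptors, had 115 and 123 FPKM in the Mll1 knockout libraries, against 85.4, 57.0 and 45.9 FPKM in control replicates 1, 2 and 3. Its control values varied widely and all lay below the knockout values. The log2 change of 0.96 ± 0.27 (SE) had a limma adjusted p of 0.0853, and without control replicate 1 Tyrobp was called as a rise (adjusted p = 0.00977).

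Ratios set the adaptors against each other and against the receptors. Fcer1g over Tyrobp was 2.40 and 2.23 in the Mll1 knockout libraries, against 3.57, 6.14 and 8.29 in the controls, a log2 difference of -1.29 with an exact permutation p of 0.2 (two-sided). The groups did not overlap, and the spread within the controls was wide. Fcer1g over the sum of Fcgr1, Fcgr3 and Fcgr4, the receptors that depend on it, was 1.24 and 1.22 in the Mll1 knockout libraries and 3.28, 4.69 and 4.86 in the controls. Over Fcgr3 alone it was 1.28 and 1.26 in the Mll1 knockout libraries and 3.43, 4.84 and 5.07 in the controls. These ratios to the receptors were chosen after their values were seen and are given without a test. Adaptor RNA thus exceeded the summed receptor RNA in every library, by a smaller factor in the Mll1 knockout libraries.

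**Figure D3:**
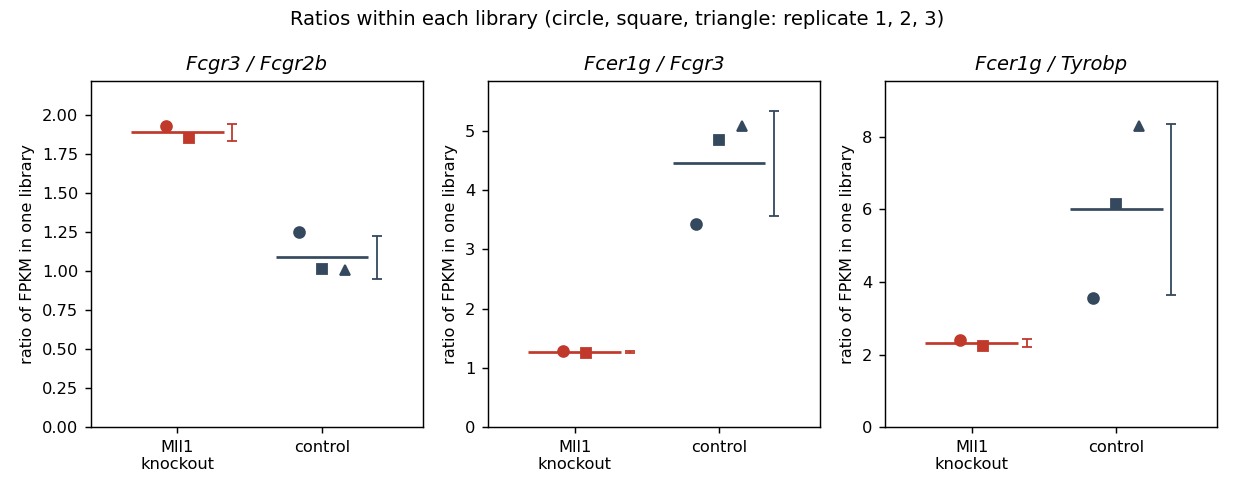
Ratios of FPKM within each library (vertical axis, linear, from 0) for Fcgr3 over Fcgr2b, Fcer1g over Fcgr3 and Fcer1g over Tyrobp; each symbol is a library, the line is the group mean and the bar beside it the SD. Fcgr3 over Fcgr2b is higher in both Mll1 knockout libraries (1.93 and 1.85) than in the controls (1.004 to 1.25), and Fcer1g over Tyrobp is lower (2.40 and 2.23, against 3.57 to 8.29).

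The IgE receptor of mast cells and basophils is built from Fcer1a, which binds IgE, Ms4a2, which amplifies the signal, and Fcer1g. Ms4a2 had 28.5 and 28.0 FPKM in the Mll1 knockout libraries and 35.2, 27.5 and 22.3 FPKM in control replicates 1, 2 and 3. The groups overlapped, the means were 28.3 FPKM in each, and the log2 change of 0.021 ± 0.19 (SE; limma adjusted p = 0.955) turned to -0.13 without control replicate 3. Of the Ms4a2 windows, 2.10% are shared with Ms4a4b, a gene of the same family. Fcer1a was listed at 0.186 and 0 FPKM in the Mll1 knockout libraries and at 0.127, 0.0315 and 0.0323 FPKM in the controls, below the filter in all 5. The alpha chain was thus at or near 0 in libraries where the beta and gamma chains were well measured. Mast cell and basophil markers summed to 1533 to 1556 FPKM in Mll1 knockout libraries and 850 to 1076 FPKM in control libraries. Most of each sum came from Cpa3, which was not called (adjusted p = 0.0581). Cpa3 was at 950 and 965 FPKM in Mll1 knockout libraries and 432, 633 and 581 FPKM in controls. Of the 9 tested members 4 rose (44.4%, against 3.82% of all genes tested), namely Mcpt8, Il1rl1, Gata2 and Hdc. Mcpt8 was at 41.6 and 46.1 FPKM in Mll1 knockout libraries and 16.6, 20.1 and 15.3 FPKM in controls (adjusted p = 0.0137). Tpsb2 and Cma1 were not called, nor was Kit, which lay below every control in both Mll1 knockout libraries. The part of mast cells and basophils in the Ms4a2 values was not tested.

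Syk, the kinase that docks on the phosphorylated ITAM, had 27.3 and 29.0 FPKM in the Mll1 knockout libraries and 25.5, 24.1 and 24.7 FPKM in the controls. Both knockout values lay above every control by a small margin, and the log2 change of 0.18 ± 0.072 (SE) had a limma adjusted p of 0.183. Fcgrt, the neonatal Fc receptor that spares IgG from breakdown, was at 0.279 and 0.131 FPKM in the Mll1 knockout libraries and 0.938, 0.200 and 0.221 FPKM in the controls. It stayed under 1 FPKM in every library and was not tested, and its highest value was that of control replicate 1. Its partner chain B2m was at 498 and 511 FPKM in the Mll1 knockout libraries and 460.4, 718 and 808 FPKM in the controls, which overlapped (limma adjusted p = 0.416).

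On chromosome 1 the receptor cluster runs Fcgr2b, Fcgr4, Fcgr3, and Fcer1g lies further along with 7 protein-coding genes of the tables between. These neighbours were chosen after values of the members were seen. Of the 7, 5 were tested and 0 were called by limma, against 9.79% of all genes tested. At an unadjusted p under 0.05, 0 were higher and 2 lower. Of all 11780 genes tested, 3511 passed that cut in either direction. The 2 were Sdhc, a subunit of succinate dehydrogenase, at 100.2 and 98.7 FPKM in the Mll1 knockout libraries against 111, 134 and 117 FPKM in the controls, and Apoa2, an apolipoprotein, at 2.81 and 2.08 FPKM in the Mll1 knockout libraries against 3.09, 5.57 and 4.80 FPKM in the controls. Of 10 genes on the outer flanks 7 were tested, and 1, Olfml2b, rose (log2 change 2.95, adjusted p = 0.0439), against 3.82% of all genes tested. On the flanks 0 fell, and 2 were higher and 2 lower at an unadjusted p under 0.05. The Fc receptor-like genes Fcrla and Fcrlb, next to Fcgr2b, were under 1 FPKM in every library.

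**Figure D4:**
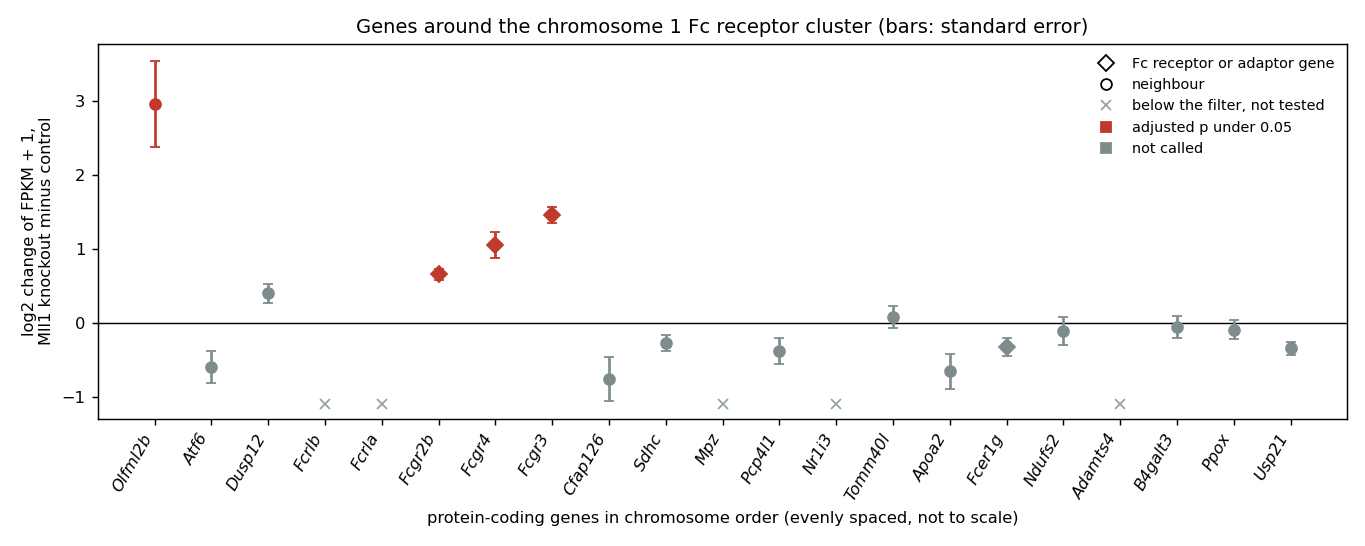
Log2 change of FPKM + 1, Mll1 knockout minus control, with SE bars, for protein-coding genes in chromosome order around the receptor cluster, evenly spaced and not to scale; diamonds are Fc receptor or adaptor genes, circles neighbours, crosses genes below the filter, and red marks an adjusted p under 0.05. Fcgr2b, Fcgr4 and Fcgr3 stand side by side above 0, and none of the 5 tested genes between them and Fcer1g is called, beside 9.79% of all genes tested.

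Genes that work with these receptors were read from 6 lists. The first holds 21 receptors and chains of the ITAM and related pathways, most of which pair with an ITAM adaptor; among those tested, Hcst is itself an adaptor without an ITAM, and Clec7a signals through a motif in its own tail. Of the 21, 20 were found and 9 tested: 2 rose (22.2%, against 3.82% of all genes tested), 1 fell (11.1%, against 5.97%), and the median log2 change was 1.17. Trem3, a mouse receptor that pairs with Tyrobp, had 67.1 and 68.7 FPKM in the Mll1 knockout libraries against 24.4, 28.7 and 25.9 FPKM in the controls (log2 change 1.34, adjusted p = 0.00657). Clec5a, another partner of Tyrobp, had 23.9 and 23.2 FPKM in the Mll1 knockout libraries against 7.51, 3.78 and 5.17 FPKM in the controls (log2 change 1.96, adjusted p = 0.0191). Clec4e, also called Mincle, which pairs with Fcer1g, fell to 30.4 and 32.9 FPKM in the Mll1 knockout libraries, against 44.4, 44.4 and 45.3 FPKM in the controls (log2 change -0.48, adjusted p = 0.0248). Pilrb1 missed the threshold, at 3.996 and 4.55 FPKM in the Mll1 knockout libraries against 1.97, 0.720 and 0.569 FPKM in the controls (adjusted p = 0.0548). Without control replicate 1 this list gave 6 rises and 1 fall, beside 1398 rises and 2118 falls over all 11780 genes tested. Without control replicate 2 or 3 it gave 1 rise and 0 falls. Over all genes tested there were then 45 rises and 66 falls without control replicate 2, and 70 and 134 without control replicate 3. Fits with a lone knockout library are not counted for the list.

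The kinases and other chains that act beside Syk were read in the same way. Of 11 SRC and TEC family kinases 7 were tested, 0 rose (1, Btk, was higher at an unadjusted p under 0.05) and 1 fell (14.3%, against 5.97% of all genes tested), with a median log2 change of -0.03. Fyn, a SRC family kinase, was at 5.77 and 5.17 FPKM in the Mll1 knockout libraries against 16.8, 24.7 and 22.0 FPKM in the controls, a fall of the log2 level by 1.76 (adjusted p = 0.0131). Lyn, the family member best known at mast cell Fc receptors and named here after its values were seen, was at 26.8 and 26.0 FPKM in the Mll1 knockout libraries against 28.1, 25.8 and 27.2 FPKM in the controls (adjusted p = 0.805). Btk, a TEC kinase, was at 83.2 and 86.1 FPKM in the Mll1 knockout libraries against 69.9, 65.6 and 71.6 FPKM in the controls (adjusted p = 0.0735), and Tec (adjusted p = 0.410) was not called either. Of 7 other ITAM chains and SYK family genes only Zap70 (adjusted p = 0.117) and Cd247 (0.712) were tested. Of 11 other Fc-binding genes only Trim21 (0.194) and B2m were tested. Limma called 0 of these 4, with Zap70 lower at an unadjusted p under 0.05. Zap70 passed the filter only through controls, where it was higher. The fall of Fyn was called without control replicate 1, and the kinase list held 0 falls without control replicate 2 or 3. Without control replicate 1 the kinases also gave 3 rises, and the ITAM chains and the other Fc-binding genes gave 1 fall each. Over all 11780 genes tested, 1398 rose and 2118 fell without control replicate 1, and 66 and 134 fell without control replicates 2 and 3.

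Downstream of Syk, 23 substrates and effectors were found and 21 tested: 4 rose (19.0%, against 3.82% of all genes tested), 3 fell (14.3%, against 5.97%), and the median log2 change was -0.05. Those that rose were Lcp2, Grap2, Vav1 and Prkcd. Lcp2, the scaffold SLP-76, had 30.9 and 34.3 FPKM in the Mll1 knockout libraries against 12.1, 16.5 and 14.7 FPKM in the controls (adjusted p = 0.0189), and overlaps 4930469K13Rik on the opposite strand. Grap2, an adaptor of SLP-76, had 1.75 and 1.77 FPKM in the Mll1 knockout libraries against 0.440, 0.691 and 0.495 FPKM in the controls (adjusted p = 0.0337). Grap2 passed the filter only through the Mll1 knockout libraries, where it was high, which limits its place in the count of rises. The exchange factor Vav1 had 83.0 and 88.6 FPKM in the Mll1 knockout libraries against 60.2, 59.4 and 61.7 FPKM in the controls (adjusted p = 0.0230), and the kinase Prkcd had 70.5 and 70.8 FPKM in the Mll1 knockout libraries against 42.6, 41.4 and 41.4 FPKM in the controls (adjusted p = 0.0100). Those that fell were Lat2, Plcg1 and Pik3cg. Lat2, a LAT-like adaptor of mast cells that overlaps Rfc2 on the opposite strand, had 37.5 and 41.8 FPKM in the Mll1 knockout libraries against 89.6, 136 and 110.0 FPKM in the controls (adjusted p = 0.0196). Plcg1, a phospholipase that overlaps Gm27206 and Zhx3 on the opposite strand, had 14.4 and 13.4 FPKM in the Mll1 knockout libraries against 25.8, 23.0 and 20.6 FPKM in the controls (adjusted p = 0.0312). Pik3cg, a PI3-kinase subunit, had 18.6 and 18.0 FPKM in the Mll1 knockout libraries against 23.7, 24.1 and 23.6 FPKM in the controls (adjusted p = 0.0397). Members of the list thus moved in both directions. Without control replicate 1 the list gave 5 rises and 4 falls, beside 1398 and 2118 over all 11780 genes tested. Without control replicate 2 it gave 0 of both, beside 45 and 66. Without control replicate 3 it gave 1 rise and 0 falls, beside 70 and 134. Fits with a lone knockout library are not counted for the list.

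Of 26 inhibitory receptors and phosphatases, the class that opposes the ITAM signal as Fcgr2b does, 25 were found and 22 tested: 3 rose (13.6%, against 3.82% of all genes tested), 1 fell (4.55%, near the 5.97% of all genes tested), and the median log2 change was 0.25. Clec12a, an inhibitory C-type lectin of myeloid cells, had 37.9 and 40.2 FPKM in the Mll1 knockout libraries against 14.1, 10.6 and 10.3 FPKM in the controls (adjusted p = 0.0110). Lair1, an inhibitory collagen receptor, had 10.3 and 11.1 FPKM in the Mll1 knockout libraries against 4.42, 4.22 and 3.98 FPKM in the controls (adjusted p = 0.00826). The docking protein Dok1 had 17.6 and 16.4 FPKM in the Mll1 knockout libraries against 13.1, 12.4 and 11.6 FPKM in the controls (adjusted p = 0.0463). Pag1, the membrane anchor of the kinase Csk, fell to 3.74 and 3.51 FPKM in the Mll1 knockout libraries, against 5.70, 7.56 and 7.02 FPKM in the controls (adjusted p = 0.0386). Inpp5d, which encodes the phosphatase SHIP-1 recruited by Fcgr2b and was named after its values were seen, overlapped between groups, at 44.0 and 44.5 FPKM in the Mll1 knockout libraries and 38.0, 45.7 and 42.5 FPKM in the controls (adjusted p = 0.648). Without control replicate 1 the list gave 10 rises and 3 falls, beside 1398 and 2118 over all 11780 genes tested. Without control replicate 2 it gave 1 rise and 0 falls, beside 45 and 66. Without control replicate 3 it gave 2 rises and 0 falls, beside 70 and 134. Fits with a lone knockout library are not counted for the list.

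**Figure D5:**
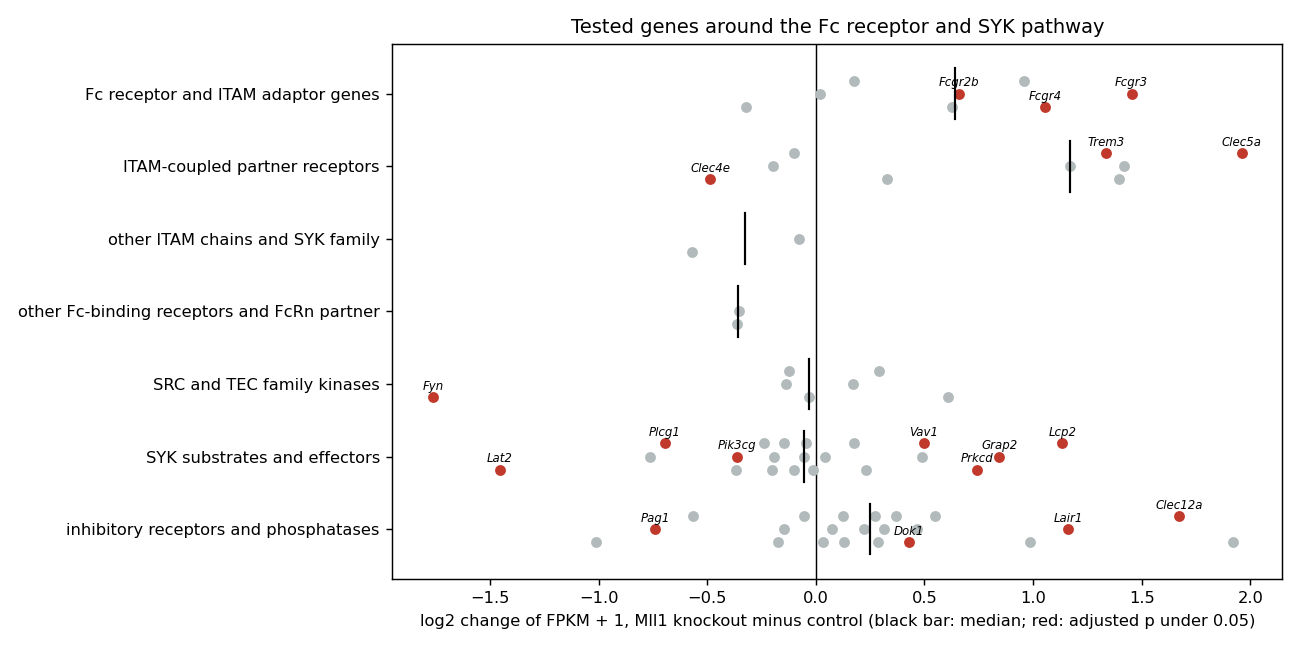
Log2 change of FPKM + 1, Mll1 knockout minus control, of each tested gene among the Fc receptor and adaptor genes and the 6 lists (points); red named points have an adjusted p under 0.05, and each black bar is the median of its list. The ITAM-coupled partner list centres at 1.17, the SYK substrates and effectors at -0.05 with called genes on both sides.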

How the data were processed

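Per the labels, 5 libraries were made with a stranded mRNA kit. The authors deposited FPKM values, 1 per gene and library; per the submitters' processing notes, the tools were Cuffdiff, GSNAP, SAMtools and CASAVA 1.8.2, and the build mm9. Not given in the sources used here are the gene annotation, whether strand was used and how multi-mapping reads were counted. In 16 genes a value of 999999999 marked a failed estimate, and these were left out. The files hold no counts, so depth is unknown and no interval of counting error is given.

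The 11780 genes at 1 FPKM or more in 2 or more libraries were tested on the log2(FPKM + 1) scale by limma 3.58.1 (R 4.3.3), using an intensity trend and Benjamini-Hochberg adjustment over all of them; adjusted p-values in the text are from this fit, called under 0.05. The pseudocount understates changes of low genes. The fit was tested on simulated data, 20 runs with 200 changed genes. Ratios within libraries were compared with an exact permutation test (two-sided). Sequences are from RefSeq promoters and GENCODE M21 transcripts; 9 of the 10 genes have a promoter entry, and Tyrobp has none.

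The members and gene lists were chosen with earlier results of these data known. Named genes are all members, every called gene of a pathway list or up to 4 with the smallest p, the 3 genes most like the member with the smallest adjusted p, and Mll1; 1 gene that this rule takes is not reported here. Marker lists are given as sums and counts; the marker genes, neighbours and other genes named beyond the rule were chosen after their values were seen. Alternatives covered the pseudocount, filter, scaling, empirical Bayes step, threshold, replicate block and each library left out.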

Additional observations from a re-analysis of the deposited data

How the results depend on the processing

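Of the 8 tested Fc receptor and adaptor genes, 3 rose and 0 fell in the main setting. Quantile normalization gave 1 fall (Fcer1g), an adjusted p under 0.1 gave 5 rises, and leaving out each library in turn gave 0 to 5 rises and 0 to 1 falls. Across all genes, 238 rose and 259 fell with no filter, 1021 and 1414 at an adjusted p under 0.1, and 0 to 1398 rose and 0 to 2118 fell with each library left out in turn. Without knockout replicate 2 limma called 0 genes, with 1669 at an unadjusted p under 0.05. No source used here says that the replicate numbers pair the samples. Same-numbered libraries had deviations from their group means that correlated by 0.037 and 0.0123. The deviations of the 2 knockout libraries mirror each other, so these values are not independent and cannot show whether samples are paired. With the replicate block 0 of the 8 genes rose and 12 genes rose and 43 fell across all; control replicate 3 then has no partner. The log2 change of Ms4a2 reversed to -0.13 with the replicate block and without control replicate 3, in a range of -0.13 to 0.18 over the libraries left out; the cause was not tested. The log2 change of Mll1 was negative and not called under every alternative, though the filter, empirical Bayes and threshold settings cannot alter a log2 change. Both permutation-tested ratios kept their direction in all alternatives run. The ratio of Fcer1a to Ms4a2 was not computed, since Fcer1a is listed at 0 in knockout replicate 2. Fcgr1 and Fcgr4 fall below a filter on a mean of 5 FPKM. Depth is unknown, which limits what can be said of Fcer1a and Fcgrt.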
